A study of Mus musculus with 24 samples.

Results

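The Bcl2 family decides at the outer membrane of the mitochondrion whether a cell survives or enters apoptosis. Survival members such as Bcl2, Bcl2l1 (Bcl-xL) and Mcl1 bind and restrain the effectors Bax and Bak1, which otherwise open pores that release cytochrome c. BH3-only members such as Bcl2l11 (Bim), Bbc3 (Puma), Bid, Bad and Bmf sense stress, loss of growth factors or detachment and block the survival proteins or, for some of them, engage the effectors directly. In mouse bone marrow, Mcl1 is required by haematopoietic stem cells, and the balance of Bcl2l1 and Bcl2l11 is known to set the survival of developing B cells.

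The genes described here are these 10 members of the family. Every Affymetrix probe set annotated to exactly 1 of the 10 symbols was taken, which gave 31 of the 45101 probe sets and covered 9 of the 10 genes. No probe set carries Bax as its single symbol in the annotation used here, so Bax is without a value. Transcript levels were measured in cells sorted by flow cytometry out of bone marrow, and each preparation used RNA of 35000 to 100000 cells. The mice were of the 129ola strain and 8 to 12 weeks old. There were 2 arrays of B cell progenitors with the genotype Dnmt1+/+ (wildtype), 3 arrays of myeloid progenitors (MP) with the genotype Dnmt1-/chip (hypomorph), 3 of wildtype MP, 3 of hypomorph haematopoietic stem cells (HSC) and 2 of wildtype HSC. Dnmt1 encodes the methyltransferase that copies DNA methylation to the new strand after replication, and the hypomorph combines a null allele with an allele of reduced function. The labels give these genotypes for whole animals and name no Cre line, so the host of the sorted cells carries the same alleles. No treatment is given, and no hypomorph B cell progenitors were analysed here.

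All levels are the authors' RMA values, read as log2 intensities, and every fold change is a difference of these values. A probe set was tested when at least 2 of the 13 arrays reached 4.64, the median of all values. Of the 31 member probe sets 25 were tested, and 22122 of all probe sets. The 6 left out belonged to Bcl2l1 (2), Bmf (2), Bak1 and Bcl2l11, each of which kept at least 1 other. Called means an adjusted p under 0.05 by limma, with Benjamini-Hochberg adjustment over all tested probe sets of a comparison. Whether each array had its own animal is not given by the labels. The p-values therefore cover the spread between arrays, which may be technical, and the number of arrays limits the precision. Detection calls were not used, and a dim probe set may or may not have exceeded its background. Levels of different probe sets are not compared with each other.

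The genotype labels were checked on Dnmt1. Its probe set 1435122_x_at stood at 8.01, 8.24 and 8.17 in hypomorph MP, against 11.41, 11.30 and 11.73 in wildtype MP. It stood at 9.02, 8.48 and 9.31 in hypomorph HSC, against 11.80 and 11.58 in wildtype HSC. The log2 fold change was -3.34 in MP and -2.75 in HSC, and that of 1447877_x_at was -3.15 and -2.51. The third Dnmt1 set, 1422946_a_at, differed by less, by -1.67 in MP (limma adjusted p = 0.0065) and by -0.75 in HSC, where it was not called (limma adjusted p = 0.106). On all 3 sets the hypomorph arrays lay below the wildtype arrays of the same cell type. Cell type labels were checked on marker lists, of which the mean level over the tested genes is given. The B cell progenitor list (9 of 10 genes tested, Ebf1, Pax5 and Rag1 among them) lay at 11.38 to 11.40 in B progenitors and at 4.99 to 5.51 on the other arrays. The MP list (9 of 10, Mpo and Elane among them) lay at 4.52 to 4.64 in B progenitors, 11.71 to 11.96 in MP and 7.04 to 8.75 in HSC. The HSC list (8 of 10, Procr and Mecom among them) lay at 4.73 to 4.81 in B progenitors, 6.97 to 7.96 in MP and 9.17 to 10.13 in HSC.

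Promoter sequence is shown for 4 genes on which the comparison of cell types turns: Bcl2, which was lower in B progenitors, and Bcl2l1, Bcl2l11 and Bmf, which were higher there. Each window runs from 250 bases before to 50 after the most upstream annotated start, 5′ to 3′ on the strand of the gene, from RefSeq on GRCm38.p6. CpG dinucleotides, the sites that Dnmt1 maintains, are in capitals. Bcl2 lies on the minus strand at chr1:106714241-106714540, Bcl2l1 on the minus strand at chr2:152831679-152831978, Bcl2l11 on the plus strand at chr2:128125788-128126087 and Bmf on the minus strand at chr2:118549637-118549936.
Bcl2: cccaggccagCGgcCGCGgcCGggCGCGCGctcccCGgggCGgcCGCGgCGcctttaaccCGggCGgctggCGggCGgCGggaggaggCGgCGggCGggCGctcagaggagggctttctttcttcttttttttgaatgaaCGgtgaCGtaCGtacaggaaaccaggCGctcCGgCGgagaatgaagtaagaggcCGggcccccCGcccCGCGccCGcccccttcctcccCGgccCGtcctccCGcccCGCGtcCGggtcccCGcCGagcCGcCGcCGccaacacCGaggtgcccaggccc
Bcl2l1: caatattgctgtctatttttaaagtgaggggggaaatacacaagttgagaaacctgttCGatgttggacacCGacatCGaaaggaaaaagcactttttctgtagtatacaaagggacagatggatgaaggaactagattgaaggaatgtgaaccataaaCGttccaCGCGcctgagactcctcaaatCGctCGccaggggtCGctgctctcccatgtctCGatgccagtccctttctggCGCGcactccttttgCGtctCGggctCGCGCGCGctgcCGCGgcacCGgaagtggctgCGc
Bcl2l11: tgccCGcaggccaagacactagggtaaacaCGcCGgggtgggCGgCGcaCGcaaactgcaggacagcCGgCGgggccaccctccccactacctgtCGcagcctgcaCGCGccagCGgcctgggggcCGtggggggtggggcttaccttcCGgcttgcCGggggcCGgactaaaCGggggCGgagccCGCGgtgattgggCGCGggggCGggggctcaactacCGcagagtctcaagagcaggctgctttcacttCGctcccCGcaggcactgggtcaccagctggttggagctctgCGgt
Bmf: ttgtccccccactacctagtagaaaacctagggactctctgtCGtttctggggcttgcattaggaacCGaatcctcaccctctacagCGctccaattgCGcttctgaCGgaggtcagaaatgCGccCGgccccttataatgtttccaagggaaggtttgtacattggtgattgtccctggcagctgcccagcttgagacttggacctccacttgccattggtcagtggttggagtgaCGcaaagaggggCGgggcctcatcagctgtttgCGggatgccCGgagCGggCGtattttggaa

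The Bcl2 window holds 44 CpG, that of Bcl2l11 27, that of Bcl2l1 22 and that of Bmf 13. All 10 genes matched the table, with 18 windows in all, because several genes have more than 1 annotated start. Their CpG count ran from 1 to 44 with a median of 22, beside a median of 7 over all 32851 windows of the same length of 300 bases. Methylation was not measured in these files. Both strands were searched for 2 motifs, and no matches overlapped. The FOXO motif GTAAACA was in 2 of the 18 windows, beside 3.65% of all windows, once in the printed Bcl2l11 window at base 24 and once in a Bbc3 window. The E-box CAGGTG was in 3 windows (of Bbc3 and Bad), beside 20.2% of all. A match describes the letters of a window and not the binding of a factor.

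B cell progenitors differed from both other cell types across the family. The BH3-only genes Bmf and Bcl2l11 and the survival gene Bcl2l1 were higher in them than in HSC, by up to 5.63, 2.79 and 1.91 on the log2 scale. Bcl2 was lower, with log2 fold changes as low as -3.54 against HSC and -4.58 against MP, and Bid, Bak1 and Bad were lower as well. Against wildtype HSC, 17 of 25 member probe sets were called, 8 higher and 9 lower, where 41.4% of all tested probe sets were called (17.2% higher and 24.2% lower). Against wildtype MP, 20 were called, 10 higher and 10 lower, beside 33.4% of all (13% higher and 20.4% lower). These calls covered 9 of 9 measured genes against HSC (52.1% of all tested genes had a called probe set) and 8 of 9 against MP (42.7%). A gene with more probe sets is more easily called in this way. The 9 genes had 25 tested sets, beside 22122 sets of 12765 genes, so these shares and the gene shares below are not strictly alike. A pair of the tested sets (Bcl2l1 1426191_a_at and Bcl2l11 1435449_at) passed the level filter only through the B progenitor arrays and had to differ, so their values are given below with no test. Without them, 15 of 23 were called against HSC (6 higher, 9 lower) and 18 of 23 against MP (8 higher, 10 lower). The median log2 fold change of the members was -0.40 against HSC and 0.04 against MP, beside -0.14 and -0.08 over all tested probe sets. Centring each array on its median put that median of all probe sets at 0.09 and 0.13 and the share of calls that were higher at 53.8% and 52.4%, against 41.6% and 39.0% without centring. No member set that was called changed its sign by it. Both comparisons use the same 2 B progenitor arrays. In sorted bulk samples, fewer cells that express a gene and less RNA per cell cannot be told apart.

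**Figure D1:**
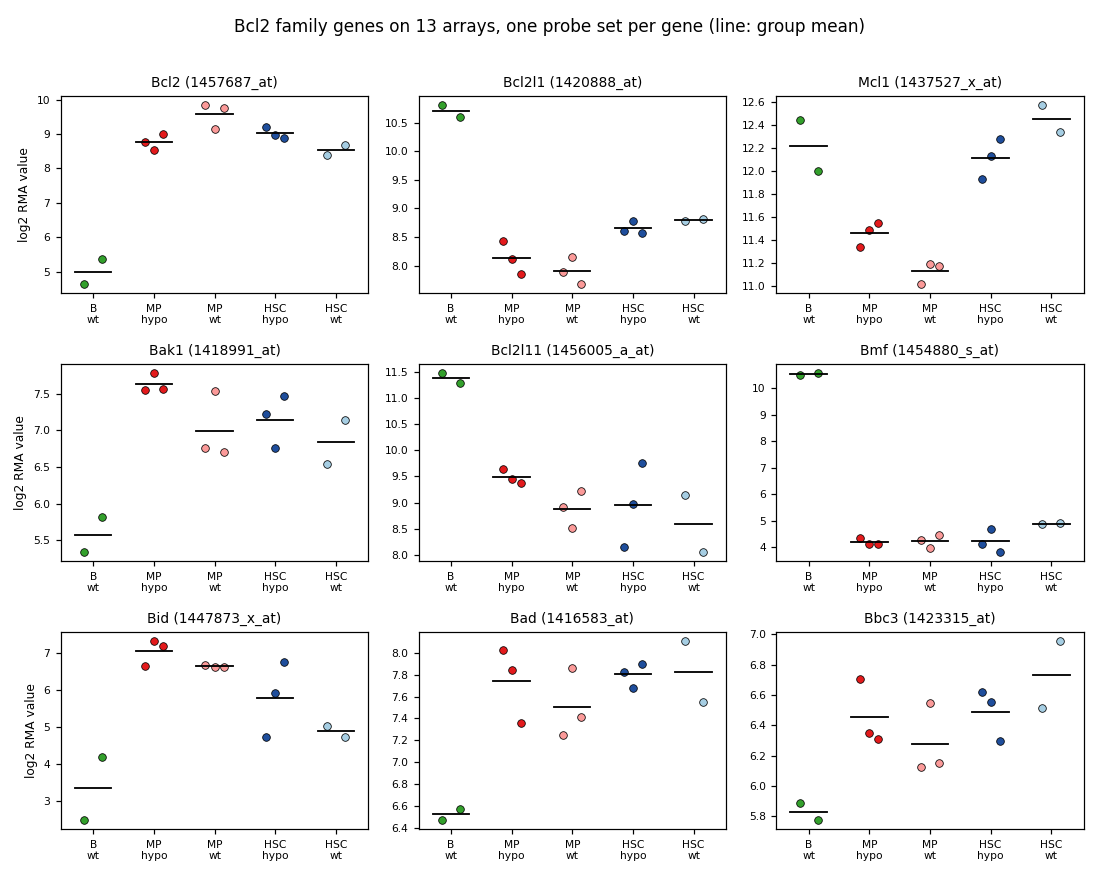
Each panel plots, for 1 gene, the log2 RMA values of its tested probe set with the widest range of group means on all 13 arrays: points are arrays, lines are group means, and groups run from wildtype B progenitors through hypomorph and wildtype MP to hypomorph and wildtype HSC. Bmf stands at 10.49 and 10.57 in B progenitors and at 3.82 to 4.92 elsewhere, and the B progenitors lie apart from all other arrays in every other panel but that of Mcl1, by the smallest margin for Bbc3.

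Among the survival genes, Bcl2 was lower in B progenitors. Its brightest probe set, 1457687_at, stood at 4.64 and 5.36 in B progenitors, 8.76, 8.52 and 8.99 in hypomorph MP, 9.85, 9.14 and 9.75 in wildtype MP, 9.20, 8.98 and 8.88 in hypomorph HSC and 8.39 and 8.68 in wildtype HSC. Both B progenitor arrays lay far below the other 11. The log2 fold change was -4.58 against MP (SE 0.28, limma adjusted p = 3.71e-08) and -3.54 against HSC (SE 0.30, limma adjusted p = 1.08e-06). A further set, 1437122_at, read 2.84 and 3.38 in B progenitors, 7.31, 7.41 and 7.65 in wildtype MP and 5.37 and 6.33 in wildtype HSC, with log2 fold changes of -4.35 against MP and -2.74 against HSC. All 5 Bcl2 sets were called lower against MP, and 3 of 5 against HSC. The exceptions against HSC were 1440770_at (-1.63, limma adjusted p = 0.0697) and 1443837_x_at (-0.67, limma adjusted p = 0.167). The call of 1422938_at against HSC (-1.31) was lost without HSC wildtype replicate 1, when it became -0.87 (limma adjusted p = 0.0732), and that of 1443837_x_at against MP (-1.42) without B progenitor replicate 1 (-1.29, limma adjusted p = 0.0540).

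Bcl2l1, whose long product Bcl-xL protects immature B cells, was higher in B progenitors. Its set 1420888_at stood at 10.81 and 10.59 in B progenitors, 8.44, 8.12 and 7.85 in hypomorph MP, 7.89, 8.15 and 7.68 in wildtype MP, 8.61, 8.78 and 8.58 in hypomorph HSC and 8.78 and 8.82 in wildtype HSC. The B progenitor arrays were the highest of all 13 and did not overlap with any other group. The rise was 2.80 on the log2 scale against MP (SE 0.22, limma adjusted p = 5.79e-07) and 1.91 against HSC (SE 0.25, limma adjusted p = 4.09e-05). The dim set 1426191_a_at, which passed the filter only through B progenitors, read 5.74 and 4.68 there and 3.61 to 4.06 on the other arrays. The log2 differences were 1.33 against MP and 1.23 against HSC. The 2 Bcl2l1 sets left out of the test stayed between 2.63 and 3.59 on every array.

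The 6 Mcl1 sets did not move alike. Mcl1 encodes a survival protein with a short half-life. Set 1416881_at read 9.14 and 9.04 in B progenitors, 7.96, 7.90 and 8.19 in wildtype MP and 8.07 and 7.62 in wildtype HSC, and was higher in B progenitors than in either (log2 fold changes 1.07 and 1.24, limma adjusted p = 0.00388 and 0.00205). The 3 sets whose names end in _x_at, which may share probes with each other or with other transcripts, were higher than in MP by 0.98 to 1.09, of which 1456243_x_at was not called without B progenitor replicate 1 (0.78, limma adjusted p = 0.0510). Against HSC the same 3 sets differed by -0.23 to -0.10 and were not called. Set 1448503_at was called against HSC (0.95, limma adjusted p = 0.0274), a call lost without HSC wildtype replicate 2 (0.64), B progenitor replicate 1 (1.01) or B progenitor replicate 2 (0.88). With only the arrays compared in the fit it was lost too (limma adjusted p = 0.0646). Set 1416880_at was called in neither comparison. After centring each array on its median, 1416880_at and 1448503_at were also called higher than in MP (0.83 and 0.95, limma adjusted p = 0.0131 and 0.0151).

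**Figure D2:**
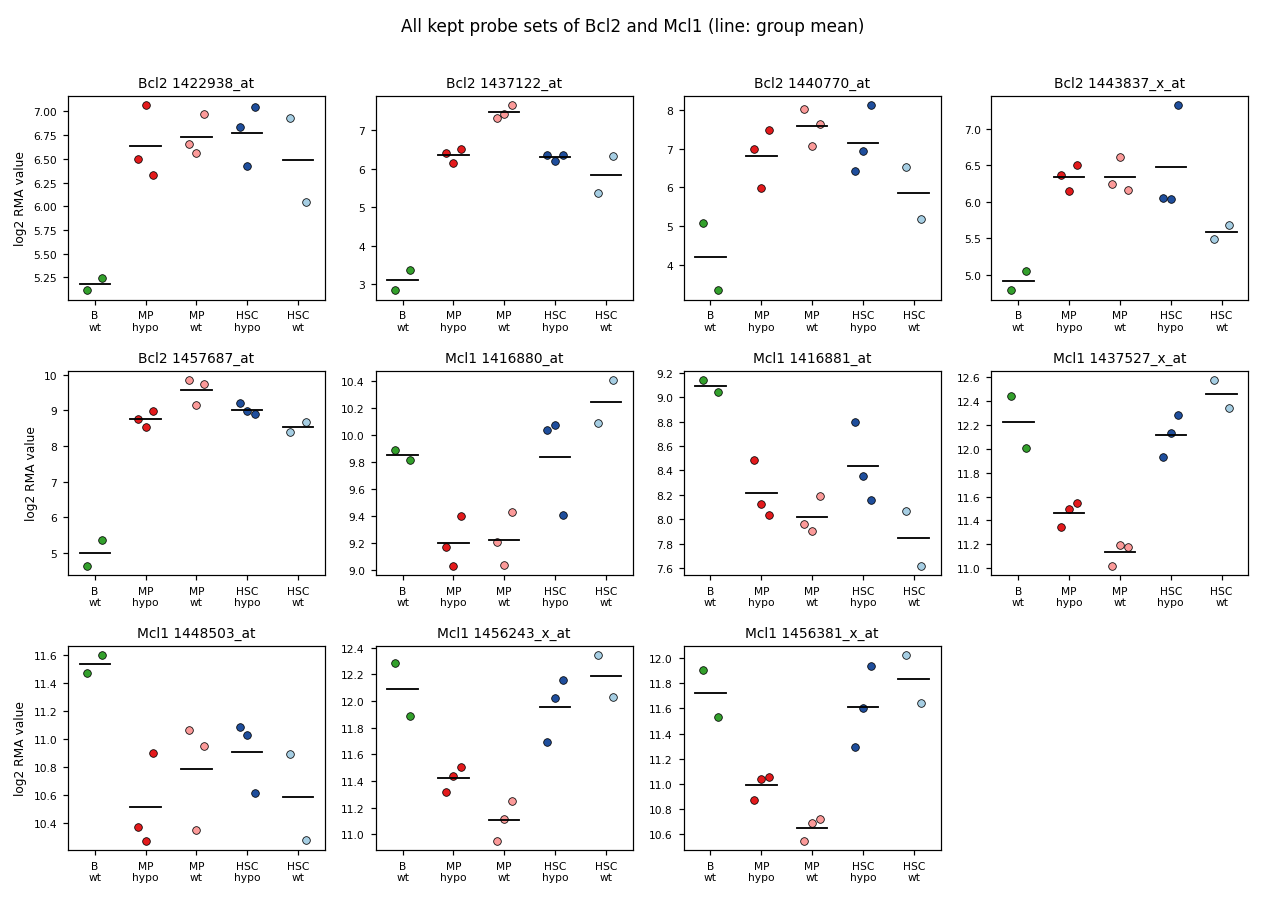
The panels plot the log2 RMA values of the 5 tested Bcl2 and 6 tested Mcl1 probe sets on 13 arrays, with a point for each array and a line at each group mean, B progenitors at the left and wildtype HSC at the right. All Bcl2 panels have the B progenitors lowest, whereas for Mcl1 the B progenitors are highest on 1416881_at and 1448503_at and near the HSC arrays on the 3 _x_at sets.

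Of the effectors, only Bak1 had values. Bak1 (1418991_at) stood at 5.34 and 5.82 in B progenitors, 7.55, 7.78 and 7.56 in hypomorph MP, 6.75, 7.53 and 6.70 in wildtype MP, 7.22, 6.76 and 7.46 in hypomorph HSC and 6.54 and 7.14 in wildtype HSC. B progenitors were lowest, and the other 11 arrays lay between 6.54 and 7.78. The difference was -1.42 against MP (SE 0.30, limma adjusted p = 0.00268) and -1.26 against HSC (SE 0.33, limma adjusted p = 0.00789). The call against HSC was lost without HSC wildtype replicate 2 (-0.97, limma adjusted p = 0.0786) or B progenitor replicate 1 (-1.03, limma adjusted p = 0.0717). The Bak1 set left out of the test, 1425716_s_at, read 2.98 to 4.29 over the 13 arrays.

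Bmf gave the widest range of group means among the tested member sets. Bmf encodes a BH3-only protein held at the actin and myosin cytoskeleton until it is released. Its set 1454880_s_at stood at 10.49 and 10.57 in B progenitors, 4.35, 4.13 and 4.12 in hypomorph MP, 4.29, 3.97 and 4.47 in wildtype MP, 4.14, 4.71 and 3.82 in hypomorph HSC and 4.88 and 4.92 in wildtype HSC. The 2 B progenitor arrays were high, and of the other 11 arrays 3, all HSC, reached the level filter of 4.64. The rise was 6.28 against MP (SE 0.25, limma adjusted p = 7.87e-10) and 5.63 against HSC (SE 0.28, limma adjusted p = 6.51e-09) on the log2 scale. Because all 6 MP arrays lay below the filter level and the HSC arrays near it, no fold of the transcript is given. The other 2 Bmf sets were left out as dim: 1422995_at read 2.99 to 3.72 and 1458325_x_at 3.82 to 4.76 over the 13 arrays. Both include the B progenitors, so the rise was measured by 1 of 3 Bmf sets. The name of that set ends in _s_at, and whether its probes match other transcripts was not looked up.

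Bcl2l11 encodes Bim, the BH3-only protein that removes autoreactive and growth factor-deprived lymphocytes. Its brightest set 1456005_a_at stood at 11.48 and 11.30 in B progenitors, 9.64, 9.46 and 9.38 in hypomorph MP, 8.91, 8.52 and 9.22 in wildtype MP, 8.14, 8.97 and 9.76 in hypomorph HSC and 9.14 and 8.05 in wildtype HSC. The B progenitor arrays lay above all others, and the HSC arrays of both genotypes were spread widely. The rise was 2.51 against MP (SE 0.41, limma adjusted p = 0.000348) and 2.79 against HSC (SE 0.45, limma adjusted p = 0.00024). Set 1435448_at rose by 1.18 and 1.60 in the same comparisons. The dim set 1435449_at, which passed the filter only through B progenitors, read 4.71 and 5.22 there, 3.79, 3.87 and 4.06 in wildtype MP and 3.86 and 2.92 in wildtype HSC. The Bcl2l11 set left out of the test, 1426334_a_at, read 3.18 to 4.11 over the 13 arrays. Set 1456006_at was not called, with differences of 0.04 against MP (95% interval -0.68 to 0.75) and 0.35 against HSC (-0.44 to 1.14).

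Bid and Bad were lower in B progenitors than in both other cell types, and Bbc3 was lower than in HSC. Bid links death receptors to the mitochondrion after cleavage by caspase-8. Its set 1417045_at stood at 5.12 and 5.47 in B progenitors, 8.14, 8.55 and 8.75 in hypomorph MP, 8.54, 8.25 and 8.33 in wildtype MP, 7.89, 7.25 and 7.09 in hypomorph HSC and 6.70 and 7.44 in wildtype HSC. B progenitors were lowest, MP highest and HSC between them. The differences were -3.08 against MP (SE 0.30, limma adjusted p = 3.24e-06) and -1.78 against HSC (SE 0.32, limma adjusted p = 0.000648). Set 1447873_x_at was also called (-3.29 and -1.54), although its 2 B progenitor arrays read 2.48 and 4.19. Its call against HSC (limma adjusted p = 0.0431) was lost when any of 9 arrays was left out. Without B progenitor replicate 1 it became -0.69 (limma adjusted p = 0.405). It was also lost without the level filter (limma adjusted p = 0.0687) and after centring (-1.31, limma adjusted p = 0.0694). The dim set 1448560_at read 3.81 and 4.01 in B progenitors, 5.48, 4.88 and 5.04 in wildtype MP and 4.43 and 4.42 in wildtype HSC. It was called lower against MP (-1.22, limma adjusted p = 0.00364) and not called against HSC (-0.51, limma adjusted p = 0.195).

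Bad, which is kept inactive by phosphorylation under growth factor signals, read 6.47 and 6.58 on set 1416583_at in B progenitors, 8.03, 7.84 and 7.36 in hypomorph MP, 7.25, 7.86 and 7.41 in wildtype MP, 7.83, 7.68 and 7.90 in hypomorph HSC and 8.11 and 7.55 in wildtype HSC. The B progenitors lay below the other groups, which overlapped. The differences were -0.98 against MP (limma adjusted p = 0.0104) and -1.30 against HSC (limma adjusted p = 0.00249). Without B progenitor replicate 1 the call against MP was lost (-0.93, limma adjusted p = 0.0711). The other Bad set, 1416582_a_at, was called against HSC only (-1.01), and that call was lost without HSC wildtype replicate 1 (-0.80), without B progenitor replicate 1 (-0.76), with only the arrays compared (limma adjusted p = 0.0526) or after centring (-0.78). It was called against MP as well when both Bad sets were averaged (-0.82) or without B progenitor replicate 2 (-0.91).

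Bbc3 encodes Puma, a target of p53. Its set 1423315_at read 5.89 and 5.78 in B progenitors, 6.70, 6.35 and 6.31 in hypomorph MP, 6.12, 6.55 and 6.15 in wildtype MP, 6.62, 6.55 and 6.30 in hypomorph HSC and 6.51 and 6.96 in wildtype HSC. B progenitors were lowest by a narrow margin. The difference from HSC was called (-0.90, SE 0.25, limma adjusted p = 0.0106), but not without HSC wildtype replicate 2 (-0.68, limma adjusted p = 0.0918), without B progenitor replicate 2 (-0.85, limma adjusted p = 0.0529), with only the arrays compared (limma adjusted p = 0.0662) or after centring each array on its median (-0.67, limma adjusted p = 0.0566). The difference from MP was -0.44 (limma adjusted p = 0.16).

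**Figure D3:**
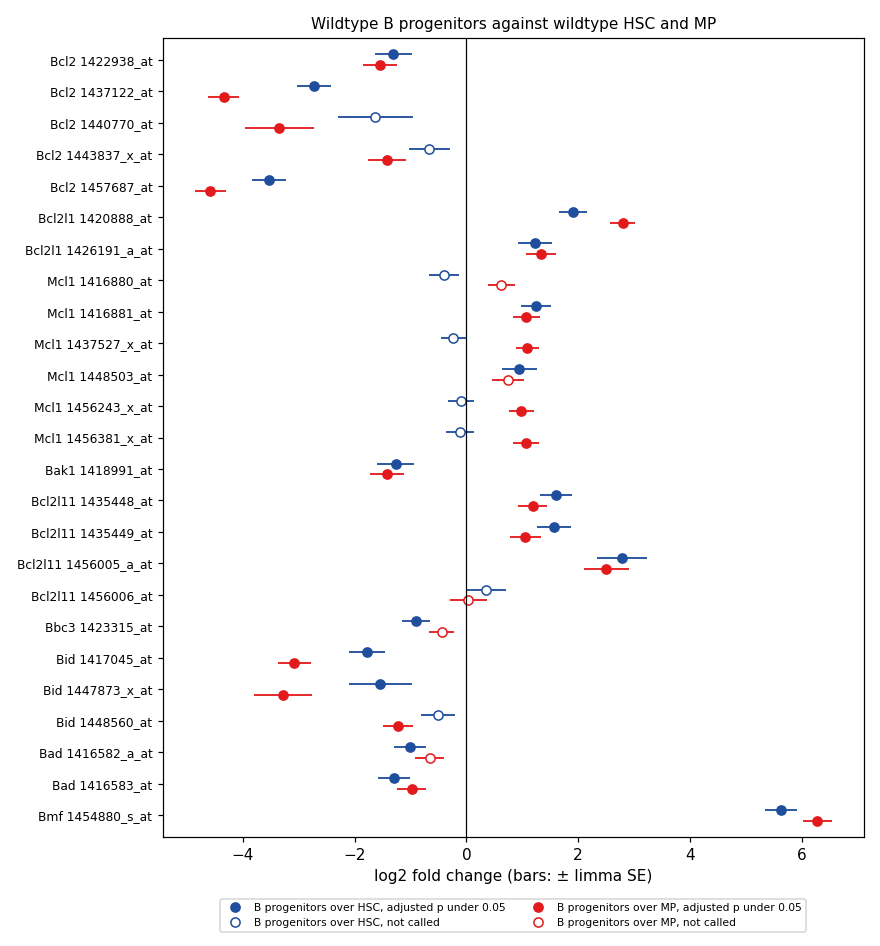
Log2 fold changes of the 25 tested member probe sets in wildtype B progenitors over wildtype HSC (blue) and over wildtype MP (red), with bars of 1 limma SE and filled points where the adjusted p is under 0.05. Bmf stands alone at the right (5.63 and 6.28), the Bcl2l1 and Bcl2l11 sets lie above 0, and the Bcl2, Bak1, Bid and Bad sets lie below it. Bcl2l1 1426191_a_at and Bcl2l11 1435449_at passed the level filter only through B progenitors and had to differ, so their filled points are no test.

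The replication and mitosis markers (9 genes tested) had mean levels of 11.26 to 11.58 in B progenitors, 10.66 to 10.94 in wildtype MP and 9.27 to 9.46 in wildtype HSC. Of these markers 6 of 9 were called higher in B progenitors than in HSC, and 2 of 9 higher than in MP. By each gene's tested probe set with the highest mean, 43.6% and 34.6% of all genes were called in either direction. The part of the markers in the family's differences was not tested.

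Myeloid progenitors were next compared with stem cells within each genotype. In wildtype cells Bcl2 and Bid stood higher in MP, and Mcl1 and Bcl2l1 lower. Of 25 member probe sets 9 were called, 4 higher and 5 lower, beside 26.8% of all tested probe sets (13% higher and 13.7% lower), and 4 of 9 genes had a call, beside 36.2% of all genes. These shares are near the background. In hypomorph cells 2 were called, beside 8.41% of all probe sets (3.32% higher and 5.09% lower), and 2 of 9 genes had a call, beside 12% of all genes: Bid 1417045_at was higher and Mcl1 1437527_x_at lower. The median log2 fold change of the members was 0.20 in wildtype and -0.04 in hypomorph cells, beside -0.08 and -0.01 over all tested probe sets. The replication and mitosis markers stood at 10.66 to 10.94 in wildtype MP, against 9.27 to 9.46 in wildtype HSC, and 7 of 9 were called. In hypomorph cells 0 of 9 were called. By each gene's tested probe set with the highest mean, 29.3% of all genes were called in wildtype and 10.1% in hypomorph cells. The part of the markers was not tested.

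Bcl2 1437122_at read 7.31, 7.41 and 7.65 in wildtype MP, against 5.37 and 6.33 in wildtype HSC, a rise of 1.61 (SE 0.28, limma adjusted p = 0.000959). All MP arrays lay above the HSC arrays, of which 1 was nearly 1 log2 unit above the other. In hypomorph cells the same set read 6.40, 6.14 and 6.52 in MP, against 6.34, 6.20 and 6.34 in HSC, and these groups overlapped (0.06, 95% interval -0.47 to 0.59). Set 1457687_at rose by 1.05 in wildtype MP (SE 0.28, limma adjusted p = 0.0135), a call lost without HSC wildtype replicate 1 (0.90), MP wildtype replicate 1 (0.91) or MP wildtype replicate 3 (0.96). In hypomorph cells its difference was -0.26 and was not called. Set 1440770_at differed by 1.72 in wildtype cells (limma adjusted p = 0.0547), just outside the threshold.

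Mcl1 1437527_x_at read 11.02, 11.19 and 11.18 in wildtype MP, against 12.58 and 12.34 in wildtype HSC, and fell by 1.33 on the log2 scale (SE 0.21, limma adjusted p = 0.000505). In hypomorph cells it read 11.34, 11.49 and 11.55 in MP, against 11.93, 12.14 and 12.28 in HSC, a difference of -0.66 (SE 0.19, limma adjusted p = 0.045). The change of this difference with the genotype was not called (0.67, limma adjusted p = 0.176). In neither genotype did MP and HSC overlap. The hypomorph call was lost under every omission of an MP array and of 2 of the 3 hypomorph HSC arrays (limma adjusted p up to 0.162), with only the arrays compared (limma adjusted p = 0.0788) and after centring (-0.56, limma adjusted p = 0.171). Sets 1456243_x_at and 1456381_x_at fell by 1.08 and 1.18 in wildtype MP, and 1416880_at by 1.02, a call lost without HSC wildtype replicate 2 (-0.86, limma adjusted p = 0.0739). Sets 1416881_at (0.17) and 1448503_at (0.20) were not called, so 4 of 6 Mcl1 sets fell.

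Bcl2l1 1420888_at fell by 0.89 in wildtype MP (SE 0.22, limma adjusted p = 0.0103). Its MP arrays (7.89, 8.15 and 7.68) lay below its HSC arrays (8.78 and 8.82). The call was lost without HSC wildtype replicate 2 (-0.87, limma adjusted p = 0.0580). When the tested Bcl2l1 sets were averaged the difference was -0.50, with the dim 1426191_a_at (-0.10) among them. Bid 1417045_at rose in both genotypes, to 8.54, 8.25 and 8.33 in wildtype MP, against 6.70 and 7.44 in wildtype HSC (1.30, SE 0.30, limma adjusted p = 0.00579). In hypomorph cells it stood at 8.14, 8.55 and 8.75 in MP, against 7.89, 7.25 and 7.09 in HSC (1.07, SE 0.26, limma adjusted p = 0.0228). MP lay above HSC on every array of both genotypes. The wildtype call was lost without HSC wildtype replicate 1 (0.94, limma adjusted p = 0.0708) and the hypomorph call without any of HSC replicates 2 and 3 or MP replicates 2 and 3 (0.91 to 1.03) or with only the arrays compared (limma adjusted p = 0.0640). Bid 1447873_x_at was called in wildtype cells only (1.75, limma adjusted p = 0.0238), and the call was lost without any of 4 arrays. Bid 1448560_at differed by 0.71 in wildtype cells (limma adjusted p = 0.0733) and 0.35 in hypomorph cells. No set of Bak1, Bcl2l11, Bbc3, Bad or Bmf was called in either genotype.

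The question of the hypomorph was whether reduced Dnmt1 moves these genes. No member probe set was called between genotypes in either cell type. In HSC 0 of 25 were called by limma, beside 8.76% of all tested probe sets and 13.1% of genes, and 3 had an unadjusted p under 0.05 (smallest adjusted p = 0.122). In MP 0 of 25 were called by limma, beside 0.452% of all and 0.658% of genes, and 5 had an unadjusted p under 0.05 (smallest adjusted p = 0.0910). The median log2 fold change of the members was 0.11 in MP and 0.07 in HSC, beside -0.02 and -0.08 over all tested probe sets. A p that misses the threshold does not show equal levels, and the intervals below give what these arrays allow. The intervals are not adjusted for the number of tests.

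Bcl2 came nearest to a call. In MP, 1437122_at read 6.40, 6.14 and 6.52 in hypomorph cells, against 7.31, 7.41 and 7.65 in wildtype cells, with no overlap (-1.10, 95% interval -1.64 to -0.57, limma adjusted p = 0.091). It was called when the fit held the MP arrays only (limma adjusted p = 0.0289), and without either wildtype HSC array (limma adjusted p = 0.0326 both times). Set 1457687_at differed by -0.82 (95% interval -1.36 to -0.29, limma adjusted p = 0.21), and 1422938_at, 1440770_at and 1443837_x_at by -0.10, -0.76 and -0.0014. In HSC the 5 Bcl2 sets were on the other side, at 0.28 to 1.30, and none was called. The largest was that of 1440770_at, at 6.41, 6.93 and 8.12 in hypomorph HSC, against 6.53 and 5.18 in wildtype HSC, and these groups overlapped (95% interval -0.03 to 2.63). On 1443837_x_at the HSC groups did not overlap (0.89, 95% interval 0.16 to 1.61, limma adjusted p = 0.123).

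The genotype effect of Bcl2 1437122_at differed between MP and HSC by -1.55 (effect in MP minus effect in HSC, SE 0.37, limma adjusted p = 0.0361). It was the only member set called in that test, beside 4.38% of all probe sets (1.62% higher and 2.77% lower). The call covers 1 of 9 genes, beside 6.79% of all genes. The call was lost without any of 7 of the 11 MP and HSC arrays, with values from -1.63 to -1.07, the smallest without HSC wildtype replicate 1 (limma adjusted p = 0.0804). Of the other Bcl2 sets, 1457687_at gave -1.31 (limma adjusted p = 0.0638), 1440770_at -2.06, 1443837_x_at -0.89 and 1422938_at -0.38. None of these was called, although 1457687_at was after centring (limma adjusted p = 0.0446) and when the Bcl2 sets were averaged (-1.24, limma adjusted p = 0.0226).

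For the other genes, no difference between genotypes reached the threshold. Bak1 read 7.55, 7.78 and 7.56 in hypomorph MP, against 6.75, 7.53 and 6.70 in wildtype MP (0.64, 95% interval 0.05 to 1.23, limma adjusted p = 0.324). The hypomorph arrays were the higher ones, by a margin of 0.03 to the nearest wildtype array. Bmf read 4.14, 4.71 and 3.82 in hypomorph HSC, against 4.88 and 4.92 in wildtype HSC (-0.67, 95% interval -1.22 to -0.12, limma adjusted p = 0.122), all near the level filter. Mcl1 1416881_at differed by 0.59 in HSC (95% interval 0.07 to 1.12, limma adjusted p = 0.154), while the 3 _x_at sets of Mcl1 differed there by -0.34 to -0.22. In MP these 3 sets differed by 0.31 to 0.34, and 1448503_at by -0.27. Bcl2l11 1456006_at differed by 0.66 in MP (95% interval 0.02 to 1.31) and 0.61 in HSC (-0.105 to 1.33). Set 1456005_a_at differed by 0.61 in MP (95% interval -0.18 to 1.40) and 0.36 in HSC (-0.52 to 1.24), and the dim 1435449_at by -0.36 in MP. Bid 1447873_x_at differed by 0.91 in HSC (95% interval -0.21 to 2.02), and the dim Bid 1448560_at by -0.46 in MP (-0.99 to 0.07). Bad 1416582_a_at differed by 0.53 in MP (95% interval 0.03 to 1.03) and 0.02 in HSC (-0.54 to 0.58). Bcl2l1 1420888_at differed by 0.23 in MP (95% interval -0.20 to 0.66) and -0.14 in HSC (-0.63 to 0.34).

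**Figure D4:**
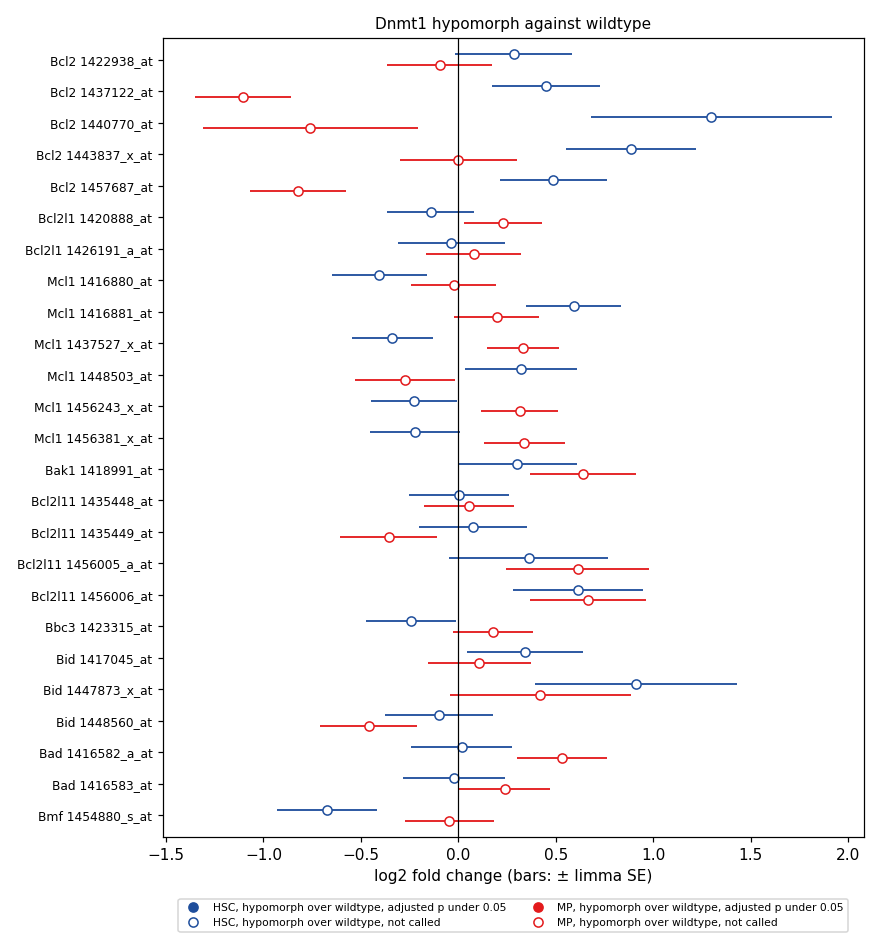
Log2 fold changes of the 25 tested member probe sets in hypomorph over wildtype cells, in HSC (blue) and MP (red), with bars of 1 limma SE; open points mark sets that were not called, which holds for all 25 in both cell types. The Bcl2 sets lie above 0 in HSC (0.28 to 1.30) and at or below 0 in MP (as low as -1.10).

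Some marker lists moved with the genotype in HSC, where 9.45% of all genes were called by their tested probe set with the highest mean. The mast cell and basophil list (6 of 7 genes tested, Cpa3 among them) lay at 7.19 to 8.17 in hypomorph HSC and at 4.39 to 4.81 in wildtype HSC, with 6 of 6 called higher. The MP list lay at 8.32 to 8.75 in hypomorph HSC and 7.04 to 7.50 in wildtype HSC, with 4 of 9 called higher. The replication and mitosis list lay at 10.48 to 10.90 in hypomorph HSC and 9.27 to 9.46 in wildtype HSC, with 6 of 9 called higher. Of the other lists, T and NK had 2 of 5 higher, erythroid 1 of 6 higher, and HSC 1 higher and 2 lower of 8. The B cell progenitor list had 1 of 9 lower, megakaryocyte 1 of 6 lower, and mature neutrophil and monocyte 0 of 6 called. In MP, the mast cell and basophil, the MP and the T and NK lists had 1 gene higher each. The B cell progenitor list had 1 lower there, beside 0.494% of all genes. The part of these markers in the family's values in hypomorph HSC was not tested.

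Around the members, the machinery of apoptosis was read from lists of genes, each gene by its tested probe set with the highest mean. By the same reading, 34.6% of all genes were called in B progenitors against MP, 43.6% against HSC, 29.3% between wildtype MP and HSC and 10.1% between hypomorph MP and HSC. Between genotypes 0.494% were called in MP, 9.45% in HSC and 4.65% in the difference of these effects. Of 8 tested genes of the wider Bcl2 family, B progenitors had 2 higher and 1 lower than wildtype MP, and 1 higher and 1 lower than wildtype HSC. Bcl2l2, the survival gene of Bcl-w, averaged 5.88 ± 0.60 (SD, n = 2) in B progenitors, 7.05 ± 0.26 (SD, n = 3) in wildtype MP and 7.38 ± 0.12 (SD, n = 2) in wildtype HSC (-1.17 and -1.49). It was not called without B progenitor replicate 1 in either comparison (-0.74 and -1.07), nor against MP without MP wildtype replicate 1 or 3 (-1.09 both times) or against HSC without HSC wildtype replicate 1 (-1.41). In hypomorph HSC, Bok, an effector-like member, averaged 8.21 ± 0.41 (SD, n = 3), against 7.30 ± 0.13 (SD, n = 2) in wildtype HSC (0.92, limma adjusted p = 0.035), and was the only one of the 8 called there. Its call was lost without any of 8 arrays (limma adjusted p up to 0.124) and with only the arrays compared (limma adjusted p = 0.221). In hypomorph cells Bok was lower in MP than in HSC (-1.45, limma adjusted p = 0.000945), the only one of the 8 called. Between wildtype MP and HSC 0 of 8 were called.

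Of 12 tested genes of the apoptosome and the caspases, B progenitors had 3 higher and 4 lower than HSC, and 0 higher and 3 lower than MP. Apaf1, the scaffold of the apoptosome, averaged 10.26 ± 0.09 (SD, n = 2) in B progenitors and 7.97 ± 0.24 (SD, n = 2) in wildtype HSC (2.29, SE 0.33, limma adjusted p = 9.93e-05). Casp8, the initiator caspase of death receptors that cleaves Bid, averaged 8.48 ± 0.35 (SD, n = 2) in B progenitors and 10.07 ± 0.11 (SD, n = 3) in wildtype MP (-1.59, limma adjusted p = 0.00122). In wildtype MP 4 were higher and 1 lower than in wildtype HSC, with Cycs, which encodes cytochrome c, at 12.86 ± 0.20 (SD, n = 3) in MP and 10.34 ± 0.90 (SD, n = 2) in HSC (2.52, limma adjusted p = 0.000205). In hypomorph cells 1 of 12 was higher in MP, the nuclease gene Endog (1.64, lost without MP hypomorph replicate 2 at 1.48). In hypomorph HSC 2 were higher and 1 lower than in wildtype HSC, and Cycs averaged 12.15 ± 0.53 (SD, n = 3) in hypomorph and 10.34 ± 0.90 (SD, n = 2) in wildtype HSC (1.81, limma adjusted p = 0.00744). Without HSC wildtype replicate 2 this became 1.17 (limma adjusted p = 0.104), and with only the HSC arrays compared the call was lost (limma adjusted p = 0.143).

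Of 8 tested caspase inhibitor genes, B progenitors had 4 higher and 1 lower than HSC and 1 higher and 2 lower than MP. Naip2, an inflammasome receptor of the inhibitor family, averaged 3.51 ± 0.22 (SD, n = 2) in B progenitors, 7.79 ± 0.31 (SD, n = 3) in wildtype MP and 6.67 ± 0.38 (SD, n = 2) in wildtype HSC (-4.28 and -3.15), and in hypomorph cells it was higher in MP than in HSC (1.95), where 1 other gene was lower. The Naip genes are close copies of each other, so their probe sets may not tell them apart. Birc5, which is also a mitotic protein, was higher in wildtype MP than in wildtype HSC (1.21, limma adjusted p = 0.00605), where 2 genes were higher and 0 lower. It averaged 9.11 ± 0.18 (SD, n = 3) in hypomorph and 7.83 ± 0.41 (SD, n = 2) in wildtype HSC (1.29, limma adjusted p = 0.0133), the only one of the 8 called there. Both Birc5 calls were lost without HSC wildtype replicate 2 (0.92 and 0.995), and that in hypomorph HSC also with only the arrays compared (limma adjusted p = 0.110).

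Of 5 tested death receptor and adaptor genes, B progenitors had 0 higher and 3 lower than HSC and 0 higher and 2 lower than MP. Tnfrsf1a, the receptor for tumour necrosis factor, averaged 7.71 ± 0.46 (SD, n = 2) in B progenitors, 10.16 ± 0.12 (SD, n = 3) in wildtype MP and 10.85 ± 0.16 (SD, n = 2) in wildtype HSC (-2.45 and -3.14, limma adjusted p = 7.95e-06 and 1.80e-06). Its adaptor Tradd was the only one of the 5 called between wildtype MP and HSC (-0.83, limma adjusted p = 0.0334), and this was lost without any of 4 arrays (limma adjusted p up to 0.137) and when its probe sets were averaged (-0.67). None was called between genotypes or between hypomorph MP and HSC.

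Of 13 tested regulators of the family, B progenitors had 2 higher and 6 lower than HSC and 5 higher and 5 lower than MP. Foxo1, a transcription factor known to activate Bcl2l11, averaged 11.71 ± 0.06 (SD, n = 2) in B progenitors, 7.69 ± 0.15 (SD, n = 3) in wildtype MP and 8.28 ± 0.35 (SD, n = 2) in wildtype HSC (4.03 and 3.44, limma adjusted p = 2.48e-07 and 2.64e-06). Pim2, a kinase that phosphorylates Bad, was lower in MP than in HSC in wildtype (-2.40, limma adjusted p = 0.000144) and hypomorph cells (-1.99, limma adjusted p = 0.00058), and 4 and 3 regulators were called lower in these comparisons and 0 higher. Ddit3, the stress factor CHOP, which in mouse cells raises Bcl2l11, averaged 7.66 ± 0.14 (SD, n = 3) in hypomorph and 8.94 ± 0.16 (SD, n = 2) in wildtype HSC (-1.27, limma adjusted p = 0.00761), the only one of the 13 called there. It was not called without HSC wildtype replicate 2 (-1.16, limma adjusted p = 0.0789) or with only the arrays compared (limma adjusted p = 0.0932), and the mean of its tested probe sets gave -0.53 (limma adjusted p = 0.186). In MP 0 genes of any of the 5 lists were called between genotypes by limma, where 63 of all 12765 genes were called by the same reading.

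The genes closest in pattern to the 3 members with the widest range of group means were found by the root mean square difference of centred values over the 13 arrays. For Bmf 1454880_s_at these were Niban3 (0.241), Gfra1 (0.334) and Sertad4 (0.353). For Bcl2 1457687_at they were Slco3a1 (0.281), Emb (0.284) and Fyb (0.302). For Bid 1447873_x_at they were Pxylp1 (0.411), Ttyh2 (0.468) and Egln3 (0.537). The 3 neighbours of Bmf had group means of 13.18, 9.50 and 9.10 in B progenitors and at most 7.49, 3.52 and 2.86 in the other groups. They were chosen for their likeness to Bmf, so their high level in B progenitors follows from the choice and is no separate result. The group means of Gfra1 and Sertad4 outside B progenitors lay below the level filter of 4.64.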

How the data were processed

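Transcript levels of sorted mouse bone marrow cells were measured on 1-colour Affymetrix arrays with biotinylated cRNA, per the labels' protocols. The authors deposited RMA values in 24 columns, per the submitters' processing notes and the labels: 13 normalized with every array and 11 from an RMA run without the B progenitors. The deposited values run from 1.92 to 15.01 and were read as log2 intensities; the base is inferred from the values, and no RMA version was given in the sources used here. Between both runs, columns sharing a label correlated at 0.999 or more and others at 0.995 or less, and each pair was taken as 1 array. The 13 columns were used, with array medians of 4.56 to 4.74, the others as an alternative, and 0 columns had no sample.

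Of the probe sets, 34958 have 1 symbol, 932 several and 9211 none. A lookup of Entrez identifiers covered 34754 and changed 0 symbols. Sets with several symbols or none were not used, and 22122 sets of 12765 genes passed the filter (2 arrays at 4.64). A limma 3.58.1 model (R 4.3.3) of 5 group means gave moderated tests for 7 comparisons, with Benjamini-Hochberg adjustment in each. Wildtype HSC and wildtype MP arrays serve several comparisons. The calling was tried on simulated data with independent normal noise, and the outcome is not given here. The difference of genotype effects, hypomorph MP against HSC, and B progenitors against MP were not simulated. Tried as alternatives were the other RMA run, a replicate block, a fit of only the compared arrays, testing without a filter or with one at the 75th percentile (7.10), 1 or an averaged probe set per gene, centring, and leaving out each array.

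Calls are given for the tested member probe sets, values for a part of them in each comparison, and ranges for those left out. Of each list of pathway genes the called gene with the largest change in a comparison is named. The members and lists were chosen with earlier results of these data known.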

Additional observations from a re-analysis of the deposited data

Results flagged for a closer look

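For 3 genes the effect of the Dnmt1 genotype differed between MP and HSC by the interaction term of the limma model. Bcl2 is 1 of 9 measured members, beside 6.79% of all genes with a called probe set. Aifm1 and Ddit3 were the only calls in lists of 12 and 13 tested genes, and the lists of 8, 8 and 5 had no call. Beside these stand 4.65% of all genes by the probe set with the highest mean. The counts are near the background. The difference is the log2 fold change of hypomorph over wildtype in MP minus that in HSC.

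Bcl2 1437122_at gave -1.55 (SE 0.37, limma adjusted p = 0.0361), with -1.10 in MP and 0.45 in HSC, neither of which was called by itself. The call was lost with the replicate block (-1.485, limma adjusted p = 0.0684) and when any of several MP and HSC arrays was left out, as given above. No other Bcl2 set was called in the main fit, the brightest, 1457687_at, among them (-1.31, limma adjusted p = 0.0638).

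Aifm1, a mitochondrial flavoprotein that can move to the nucleus in cell death, gave -1.12 (limma adjusted p = 0.042), with -0.12 in MP and 1.01 in HSC. It averaged 10.56 ± 0.14 (SD, n = 3) in hypomorph and 10.67 ± 0.18 (SD, n = 3) in wildtype MP, and 10.28 ± 0.22 (SD, n = 3) in hypomorph and 9.28 ± 0.14 (SD, n = 2) in wildtype HSC. The call was lost without any of 8 of the MP and HSC arrays (adjusted p up to 0.130).

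Ddit3 gave 1.54 (limma adjusted p = 0.0234), with 0.27 in MP and -1.27 in HSC. It averaged 7.54 ± 0.10 (SD, n = 3) in hypomorph and 7.27 ± 0.46 (SD, n = 3) in wildtype MP, and 7.66 ± 0.14 (SD, n = 3) in hypomorph and 8.94 ± 0.16 (SD, n = 2) in wildtype HSC. The call was lost without any of 6 of these arrays (adjusted p up to 0.0858) and when its probe sets were averaged (0.99, limma adjusted p = 0.0848). The mast cell and basophil, the MP and the replication and mitosis markers, which were higher in hypomorph than in wildtype HSC, also differed in this test, with 4 of 6, 4 of 9 and 5 of 9 genes called lower and 0 higher. By each gene's tested probe set with the highest mean, 4.65% of all genes were called in this test. The part of these markers in the 3 results was not tested.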

How the results depend on the processing

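The number of member genes called was 0 in HSC between genotypes under every alternative tried. Between wildtype MP and HSC it was 4, against 3 without HSC wildtype replicate 2, which lost Bcl2l1, and 5 without HSC hypomorph replicate 2 or 3, where Bmf (-0.65) gained a call. With averaged probe sets it was 4, with Bmf called and Bcl2l1 not. For B progenitors it was 7 to 9 against HSC, with 7 without HSC wildtype replicate 2, and 7 to 8 against MP. Between genotypes in MP it was 1 with only the arrays compared and 0 to 1 when an array was left out, against 0. For the difference of genotype effects it was 0 with the replicate number as a block, 0 with the probe set of the highest mean per gene and 0 to 1 when an array was left out, against 1. Between hypomorph MP and HSC it was 1 with the replicate block, 0 with only the arrays compared, 1 with centred arrays and 0 to 2 when an array was left out, against 2. Deviations from group means of same-numbered arrays correlated at -0.27 to 0.27 over 23 pairs, against -0.35 to 0.38 over 44 pairs of other numbers. In a group of 2 arrays these deviations mirror each other, so the check cannot tell whether the numbers pair the samples. Of 3846 values of single probe sets under alternatives, 111 lost and 38 gained a call and 0 called values changed sign; 86 values that were not called in either setting changed sign.

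The background moved as well. Between genotypes in HSC, 8.76% of probe sets were called, against 5.37% with the block, 0.348% with only the arrays compared, 5.41% without the filter, 4.01% without HSC hypomorph replicate 2 and 2.85% without HSC wildtype replicate 2. In MP it was 0.452%, against 0.271%, 1.05% and 0.220% under the first 3 of these and 0.158% to 0.818% when an array was left out. For the difference it was 4.38%, against 1.78% with the block, 2.19% without the filter, 6.96% with the stricter filter, 6.81% with averaged probe sets and 1.08% to 10.3% when an array was left out. Between wildtype MP and HSC it fell to 16.4% without HSC wildtype replicate 2, against 26.8%, and between hypomorph MP and HSC to 4.96% without the filter, against 8.41%. The cause of these changes was not tested. The number of arrays and the absence of detection calls limit what dim sets such as those of Bmf can show.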
